A study of Mus musculus with 2 samples.

Results

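The transcripts of 36 genes for basic leucine zipper (bZIP) transcription factors, the family to which Jdp2 belongs, were compared between bone marrow neutrophils of mice labelled Jdp2 KO and mice labelled Jdp2 WT. The genes were taken from a list of 37 members of the AP-1, ATF, CREB, Maf, NF-E2, Bach and PAR groups, without the C/EBP group, and a probe set counted when the platform annotation gave it exactly 1 symbol from that list. This rule found 83 probe sets for 36 of the 18193 genes on the array. For the remaining gene, Atf1, no probe set met it. Cells had been sorted as CD11b+Ly6Clo Ly6G+, and biotin-labelled total RNA was hybridised to Affymetrix arrays. The Jdp2 KO group and the Jdp2 WT group had 1 array each, and both came from mice of a C57BL/6 /129/J mixed background. The sources used here do not give the age of the mice, how many of them stand behind an array, or which stretch of Jdp2 was deleted. With a single array on each side nothing could be tested: the spread between mice is unknown, no p-value is given, and so few arrays limit the precision throughout.

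All bZIP proteins bind DNA as dimers. A basic region contacts the DNA and a neighbouring leucine zipper joins the partners, so the abundance of each member bears on which pairs can form. Jun and Fos proteins form the classical activating AP-1 dimers, ATF and CREB proteins bind the related cyclic AMP response element, and small Maf proteins pair with NF-E2, Nrf and Bach proteins at antioxidant and globin-type elements. Jdp2 (Jun dimerization protein 2) pairs with Jun and ATF proteins, lacks an activation domain and is known as a repressor that recruits histone deacetylases. In neutrophils and their precursors, AP-1 genes respond quickly to adhesion, cytokines and handling, and Nfil3, Nfe2 and Bach factors are known from the development of blood cells.

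Values are log2 signals of probe sets as the authors deposited them, and a difference is the value on the array labelled knockout minus that on the array labelled wild type. On this scale 1 is 2-fold. Probes differ in how well they bind, so a level is compared between the arrays and not between genes. A probe set passed the level filter when at least 1 of its values reached the median of its array, which was 5.67 on the array labelled knockout and 5.65 on the other. Of the 83 bZIP probe sets 62 passed, and of the 36 genes 33 had at least 1 that did. Batf2, Creb5 and Nfe2l3 had none. The arrays correlated at 0.983 over 45037 probe sets, which are not independent replicates.

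The bZIP genes as a group differed little between the arrays. Of the 62 passing probe sets, 2 were at least 2-fold higher on the array labelled knockout, against 3.15% of all 24089 passing probe sets, and 1 was at least 2-fold lower, against 2.45%. Those higher were the probe set of Atf3 and 1 of 2 probe sets of Atf7, and the lower one was that of Atf5. At 1.5-fold the counts were 7 higher (background 9.4%) and 5 lower (background 10.1%). A difference above 0 was seen in 28 of the 62, and in 45.2% of all passing probe sets. The median difference was -0.05 for bZIP probe sets and -0.04 for all. With each gene represented by its strongest probe set, the median over 33 genes was -0.02, beside -0.04 over 11168 genes, and 15 of the 33 lay above 0, beside 44.8%. By that measure 1 gene was at least 2-fold higher and 1 at least 2-fold lower, against backgrounds of 3.06% and 2.33%. Each of these shares lay near its background. The 21 bZIP probe sets below the filter read higher on the array labelled knockout in 15 cases, with a median of 0.36. Of all 20948 probe sets below the filter, 49.4% lay above 0, and their median was 0.00. The 21 hold several probe sets of the same gene, among them 4 of Creb5 and 3 of Nfe2l3. At such weak signal a value holds background as well as transcript, and the source of this lean was not tested.

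**Figure D1:**
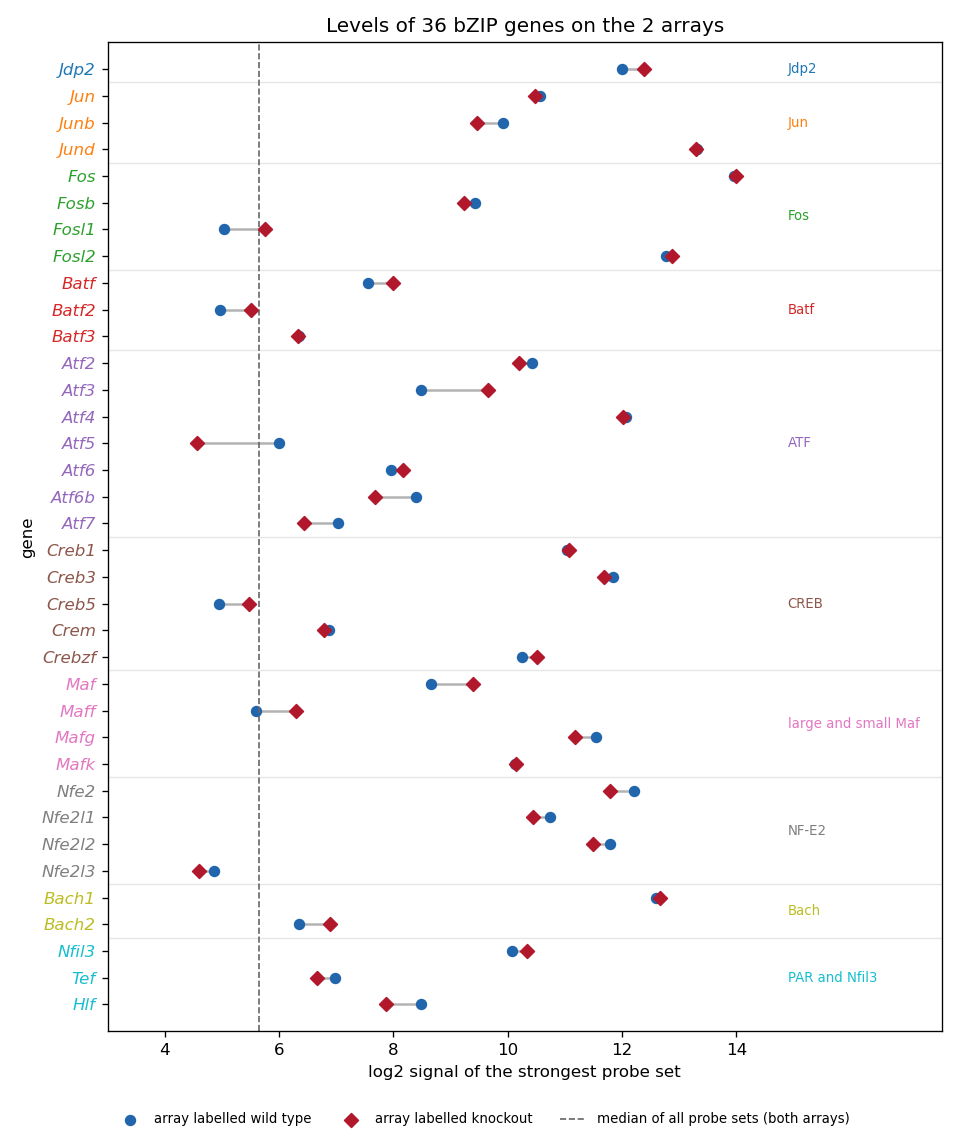
Log2 signal (x axis) of the strongest probe set of each of 36 bZIP genes (y axis, coloured by subfamily) on the array labelled wild type (blue circle) and the array labelled knockout (red diamond), with the median of all probe sets as a dashed line. Most pairs of points lie close together; Atf3 (9.66 against 8.48) and Atf5 (4.57 against 5.99) are the widest apart.

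Jdp2 was not lower on the array labelled knockout. Its probe set 1450350_a_at read 12.38 there against 12.00, a difference of 0.38, and its probe set 1424972_at read 5.40 and 5.24, under both medians. Where the probes lie relative to the deletion is unknown, and one that lies outside it checks nothing. The targeted gene therefore does not check the labels, and each direction refers to the arrays as labelled.

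Jdp2 lies between Fos and Batf in the order of protein-coding genes of the mouse assembly GRCm38.p6, so 3 members of the family are direct neighbours. Fos, partner of the Jun proteins, read 14.00 against 13.97. Batf, which pairs with Jun proteins and cooperates with interferon regulatory factors, read 7.99 against 7.55, a difference of 0.44. On the Fos side the next genes, Tmed10 and Nek9, differed by 0.06 and 0.04, and Zc2hc1c, below the level filter, by -0.05. On the Batf side Flvcr2, also below it, differed by 0.23, Erg28 by 0.78 and Ttll5 by 0.27. Differences on the Batf side of Jdp2 were thus above those on the Fos side in these 2 arrays.

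The 250 bases before the annotated starts of Jdp2, Fos, Batf and Atf3 are shown because they belong to the targeted gene, the bZIP genes on either side of it and the member with the highest difference past the filter. Sequences are from RefSeq, build GRCm38.p6, written 5′ to 3′ along the gene, for the first 2 of the 3 Jdp2 starts in the table. Capitals mark letters that match 1 of 5 bZIP motifs on either strand.
Fos, chr12:85473640-85473889, plus strand: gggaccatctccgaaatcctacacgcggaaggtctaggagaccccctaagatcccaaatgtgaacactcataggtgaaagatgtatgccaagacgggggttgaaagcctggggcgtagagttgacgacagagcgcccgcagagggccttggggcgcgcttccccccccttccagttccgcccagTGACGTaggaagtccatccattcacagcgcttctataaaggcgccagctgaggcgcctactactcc
Jdp2, upstream start, chr12:85598855-85599104, plus strand: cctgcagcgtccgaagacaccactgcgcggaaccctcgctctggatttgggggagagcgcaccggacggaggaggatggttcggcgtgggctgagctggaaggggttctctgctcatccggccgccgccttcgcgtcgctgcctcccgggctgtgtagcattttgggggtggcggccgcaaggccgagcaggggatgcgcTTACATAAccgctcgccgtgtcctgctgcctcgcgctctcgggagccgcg
Jdp2, middle start, chr12:85599166-85599415, plus strand: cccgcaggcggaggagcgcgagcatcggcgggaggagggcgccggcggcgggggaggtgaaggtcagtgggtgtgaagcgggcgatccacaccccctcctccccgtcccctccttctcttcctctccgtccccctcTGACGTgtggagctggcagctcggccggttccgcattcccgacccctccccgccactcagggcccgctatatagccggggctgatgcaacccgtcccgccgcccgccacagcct
Batf, chr12:85686470-85686719, plus strand: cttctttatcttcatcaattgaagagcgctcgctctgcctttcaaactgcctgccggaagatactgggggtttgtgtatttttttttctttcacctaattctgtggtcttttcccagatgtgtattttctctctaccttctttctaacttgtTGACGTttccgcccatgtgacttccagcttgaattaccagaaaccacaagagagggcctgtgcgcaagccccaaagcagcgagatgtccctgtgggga
Atf3, chr1:191183334-191183583, minus strand: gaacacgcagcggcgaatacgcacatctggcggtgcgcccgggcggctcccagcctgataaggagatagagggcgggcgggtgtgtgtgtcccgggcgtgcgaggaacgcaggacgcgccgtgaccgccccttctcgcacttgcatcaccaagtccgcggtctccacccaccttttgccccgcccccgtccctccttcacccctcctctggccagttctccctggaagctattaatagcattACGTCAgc
In 4 of these windows the capitals are TGACGT or its reverse ACGTCA, the core of the cyclic AMP response element. In the Jdp2 window at the upstream start they are TTACATAA, the reverse of TTATGTAA, a sequence bound by Nfil3 and the PAR factors Tef and Hlf. In the Atf3 window the match lies from 8 to 3 bases before the start, and in the Fos window from 66 to 61 bases before it.

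A promoter window was used for 30 of the 36 genes, 41 windows in all, since 6 genes have several starts. Atf6, Batf2, Crem, Fosl1, Maf and Nfe2 had no window in this set. Windows on chr18 were left out of the bZIP set but not of the set of all genes. A bZIP gene with windows on chr18 alone is therefore counted among these 6, whatever its sequence. The core TGACGT, either strand, was in 10 of the 41 windows (24.4%) and in 6.47% of the 32851 windows of all genes. Its carriers were Atf3, Batf, Creb5, Crebzf, Fos, Hlf, Jdp2, Maff, Mafg and Nfe2l1. Their strongest probe sets differed in both directions, from -0.61 for Hlf to 1.18 for Atf3. The full element TGACGTCA, which contains that core, was in 3 windows (7.32%, against 1.55% of all), those of Creb5, Hlf and Maff. The AP-1 site TGACTCA was in 1 window (Creb5, 2.44%, against 4.46%), TTATGTAA in 1 (Jdp2, 2.44%, against 0.819%), and the antioxidant element TGACNNNGC in 6 (14.6%, against 10.2%), those of Atf6b, Crebzf, Maff, Mafg, Mafk and Nfe2l2. A match describes the letters and is not evidence of binding.

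Among the ATF genes, Atf3 and Atf5 stood at opposite ends. Atf3, a stress-induced repressor and the closest relative of Jdp2, has 1 probe set, 1449363_at, which read 9.66 on the array labelled knockout and 8.48 on the array labelled wild type. The difference of 1.18 is 2.27-fold, and it was the only bZIP probe set in its level band outside the central 95% of all probe sets there, -0.87 to 0.77. Atf5, which acts in the mitochondrial stress response, read 4.57 against 5.99 (1425927_a_at), a difference of -1.42. Its lower value lay under the array median, and setting it to that median left 1.25-fold. So the value of Atf5 is a contrast between signal near the median and signal below it.

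The probe sets of Atf7, a close relative of Atf2, did not point the same way. One (1425653_at) read 5.94 against 4.83, a difference of 1.11 that shrank to 1.22-fold with the lower value set to the array median, and the other (1437645_at) read 6.43 against 7.03. Their SD of 1.20 was the widest of any bZIP gene with 2 or more passing probe sets. Atf2, activated by stress kinases, was close to even, with 5 passing probe sets between -0.22 and 0.14: 10.21 against 10.43, 10.02 against 10.22, 9.23 against 9.33, 9.12 against 9.11, and 7.77 against 7.63. Atf4, the main effector of the integrated stress response, read 12.03 against 12.07 and 11.65 against 11.56 on its passing probe sets and 4.98 against 5.45 on a weak one. The membrane-bound sensors of protein folding in the endoplasmic reticulum differed from each other. Atf6 read 8.17 against 7.96, 7.46 against 7.04 and 7.05 against 7.11, whereas Atf6b read 7.68 against 8.40, a difference of -0.71.

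The Jun genes read level or lower on all but 1 of their 5 probe sets. Jund, a Jun protein that restrains growth in many cells, read 13.30 against 13.32 on 1449117_at. Its other probe set, 1440265_at, read 7.03 against 6.20, and at 0.83 this was the highest passing difference short of 2-fold. Jun, the founding member and a partner that Jdp2 was named for, read 10.48 against 10.56 on 1448694_at and 9.09 against 9.76 on 1417409_at, a difference of -0.67. Both probe sets of Jun were thus lower on the array labelled knockout, by unequal amounts. Junb, which is known to limit expansion of myeloid progenitors, read 9.47 against 9.93, a difference of -0.46.

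The Fos genes differed little, except for Fosl1, whose signal was near or under the array median. Fos itself differed by 0.03, and by -0.02 when a loess trend on level was removed. Its probe set stood at percentile 99.9 on both arrays, and whether so strong a signal could show a difference was not tested. Fosl2 (Fra-2) read 12.87 against 12.77 and 7.25 against 7.10. Fosb, an immediate early gene like Fos, read 9.24 against 9.42. Fosl1 (Fra-1) read 5.76 against 5.04 and 5.13 against 3.89. The second of these values, a difference of 1.24, came from a probe set under both medians, and the first shrank to 1.08-fold when treated as Atf5 was. In the Batf group, Batf2 read 5.51 against 4.96 below the filter and Batf3, known from dendritic cell development, read 6.33 against 6.35.

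**Figure D2:**
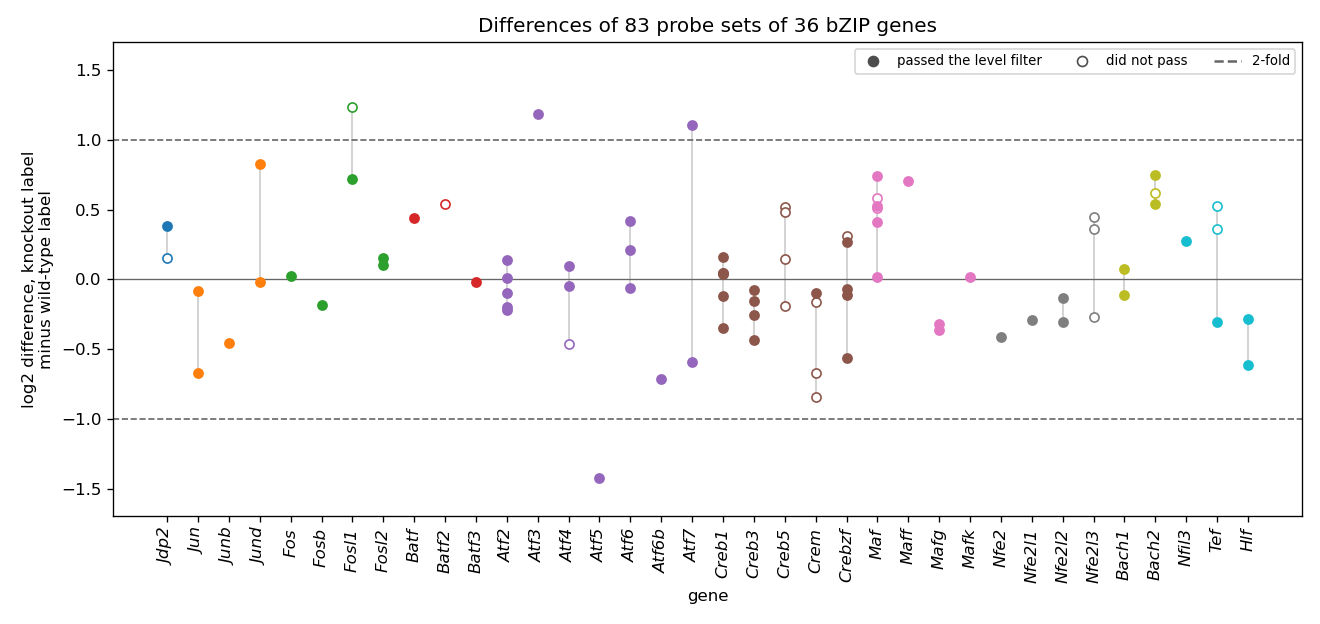
Log2 difference (y axis, knockout label minus wild-type label) of each of 83 probe sets, grouped by gene (x axis) and coloured by subfamily, with filled points for the 62 that passed the level filter, open points for the others, grey lines joining probe sets of a gene and dashed lines at 2-fold. Atf3, 1 probe set of Atf7 and a weak one of Fosl1 lie above the upper line, Atf5 lies below the lower one, and the probe sets of Atf7 and Jund are spread widely.

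The CREB group held no probe set past 1.5-fold in either direction among its 14 that passed, which ranged from -0.57 to 0.27. These are several probe sets of few genes, and 4 of them lay above 0, beside 45.2% of all passing probe sets, with a median of -0.10 beside -0.04. Under quantile normalisation 5 of the 14 lay above 0 instead of 4. Creb3, a membrane-bound factor of the secretory pathway, was below 0 on all 4 probe sets: 11.68 against 11.84, 9.54 against 9.79, 9.19 against 9.27, and 8.49 against 8.93. Under quantile normalisation 1 of the 4 lay above 0. Creb1, the factor that mediates responses to cyclic AMP, was even on its strongest probe set (11.08 against 11.03). Its other passing probe sets read 9.70 against 9.82, 9.67 against 9.52, 7.53 against 7.49 and 7.11 against 7.46, and the weakest read 2.29 against 2.25. Creb1 thus showed no common direction.

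Crem, whose isoforms can activate or repress cyclic AMP targets, was lower on each of its 4 probe sets, but only 1 of them passed the filter (6.78 against 6.88). The other 3 read 5.24 against 5.41, 4.94 against 5.61, and 3.91 against 4.75. Crebzf, a bZIP cofactor also known as Zhangfei, was mixed, with 10.51 against 10.24, 10.21 against 10.28, 7.49 against 8.06, 5.68 against 5.79, and 5.22 against 4.91. Creb5 stayed below the filter on all 4 probe sets, reading 5.47 against 4.95, 4.72 against 4.23, 3.53 against 3.38 and 3.40 against 3.59.

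Among the factors that pair at antioxidant and globin-type elements, Nfe2, Nfe2l1, Nfe2l2 and Mafg read lower on the array labelled knockout, each by less than 1.5-fold. Nfe2, the founding subunit and a factor of megakaryocytes that mature myeloid cells also express, read 11.79 against 12.20, a difference of -0.41. Nfe2l2 (Nrf2), the main activator of antioxidant genes, read 11.49 against 11.79 and 9.47 against 9.60. Nfe2l1 (Nrf1), which controls proteasome genes, read 10.44 against 10.73. None of the 4 passing probe sets, from 3 genes, lay above 0, beside 45.2% of all, and their median was -0.30 beside -0.04. The same held for their signs under each of the 3 other scalings. Nfe2l3, below the filter, was mixed at 4.60 against 4.87, 4.84 against 4.48 and 3.63 against 3.18. Mafg, a small Maf protein and partner of these factors, read 11.18 against 11.55 and 10.35 against 10.67. Among the probe sets with the strongest signal, from the 90th percentile up, the central 95% of differences ran from -0.47 to 0.46, so each value of this group in that band lies inside the common range.

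The other Maf genes did not share that direction. Mafk, a second small Maf protein, was even at 10.14 against 10.12. Maff, the third and an inducible one, read 6.30 against 5.59, a difference of 0.70. Maf (c-Maf), a large Maf protein with an activation domain that is prominent in macrophages, read higher on all 6 probe sets, of which 4 passed. They read 9.40 against 8.66, 8.13 against 7.60, 6.98 against 6.96 and 6.32 against 5.90, and the weak ones read 3.90 against 3.31 and 3.21 against 2.70. Centring on array medians put 1 of the 6 below 0. Monocyte and macrophage markers were higher on the same array. Of 16 measured, 15 passed, 14 lay above 0 and their median was 1.17. At least 2-fold higher were 9 of them, F13a1 (2.43), Ms4a6c (1.69), Mrc1 (1.64), C1qa (1.54), Adgre1 (1.25), Fcgr1 (1.24), C1qc (1.18), C1qb (1.17) and Ccr2 (1.07). Of these, F13a1, Ms4a6c, C1qa, Fcgr1 and C1qc passed only through the array labelled knockout. With values under an array median set to it, 5 of the 9 stayed past 2-fold, namely F13a1 (3.25-fold), Mrc1, Adgre1, C1qb and Ccr2. Ms4a6c, C1qa, Fcgr1 and C1qc fell to between 1.71-fold and 1.78-fold, and the median of the list was 0.82. A second passing probe set of Fcgr1 read -0.47, and Cd14 lay below 0 (-0.79). The summed linear signal of the list was 11495 on the array labelled knockout and 10427 on the other. The part of these cells in the values of Maf was not tested, and in sorted bulk RNA more cells of a type and more RNA per cell cannot be told apart.

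Bach1 and Bach2 repress targets of the NF-E2 group by competing for the same partners. Bach1, which heme inactivates, was even, reading 12.67 against 12.59 and 8.94 against 9.05. Bach2, best known from B cells and lymphoid-primed progenitors, was higher on all 3 probe sets, at 6.89 against 6.34, 5.68 against 4.93 and 5.15 against 4.53. Only the first of these exceeded both medians. B cell markers had a median of 0.00 over 6 passing genes, 3 of them above 0. Igll1 differed by 1.15, or 1.60-fold with its lower value set to the array median, and Cd79a by 0.85. Ighm differed by -0.93, with passing probe sets from -1.45 to 0.07. The summed signal of the list was 1241 on the array labelled knockout against 1663. Their part in the values of Bach2 was not tested.

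**Figure D3:**
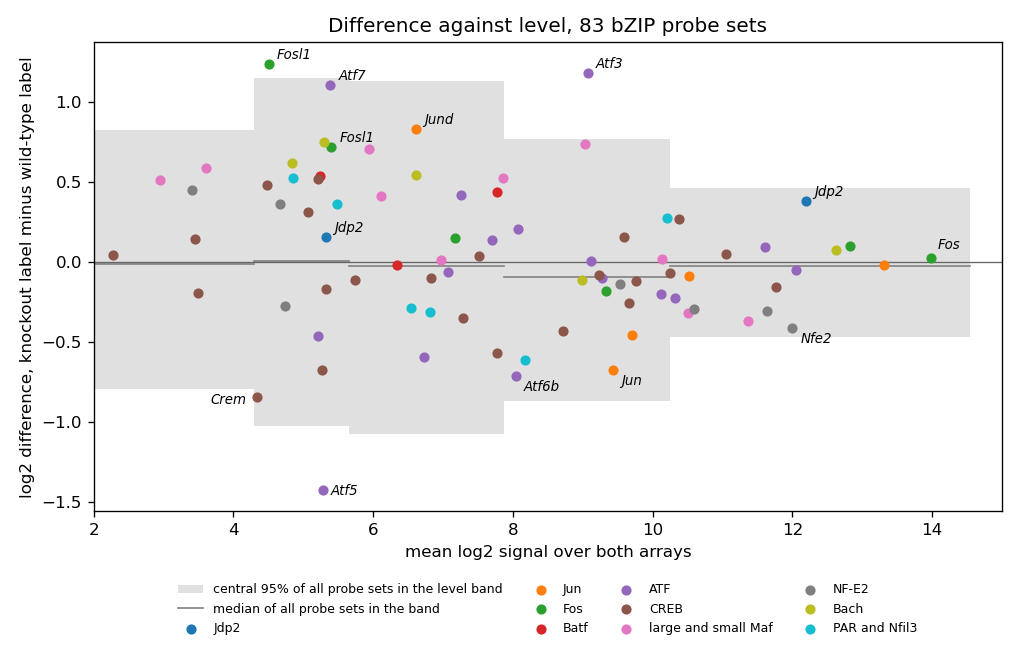
Log2 difference (y axis) against the mean log2 signal over both arrays (x axis) for 83 bZIP probe sets, coloured by subfamily, over the central 95% (grey) and the median (line) of all probe sets in 5 level bands. Of the 83 points, Atf3, Atf5 and 1 weak probe set of Fosl1 lie outside the grey area, and the area narrows to -0.47 to 0.46 in the band with the strongest signal, which holds Jdp2, Fos and Nfe2.

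The PAR factors Tef and Hlf and the repressor Nfil3 compete for the same clock-controlled sites. Nfil3 (E4bp4), needed for several innate lineages, read 10.35 against 10.07. Hlf, a factor of blood stem cells, was lower on both probe sets, at 7.87 against 8.48 and 6.40 against 6.69. Tef read 6.66 against 6.97 on its passing probe set and 5.66 against 5.30 and 5.12 against 4.59 on weak ones. The activators Tef and Hlf therefore read lower on their passing probe sets and the repressor slightly higher. Of 8 passing genes of the clock and PAR list, Per1, an immediate light- and glucocorticoid-responsive clock gene, read 9.14 against 7.24 and Per2 read 6.88 against 8.13. Per1 was thus higher by 1.90 and Per2 lower by 1.25, although another passing probe set of Per2 differed by -0.11. Nr1d1, a repressor of Nfil3 and of the clock gene Arntl, differed by 0.85, and Dbp, the remaining PAR factor, by -0.21.

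How far probe sets of a gene agreed shows how much of a difference rests on the choice of probe. Of 22 bZIP genes with 2 or more probe sets, 11 had all of them on the same side of 0, a share to be read beside 43.7% of 9010 such genes on the array. They were Jdp2, Jun, Fosl1, Fosl2, Mafg, Nfe2l2 and Hlf with 2 probe sets, Bach2 with 3, Creb3 and Crem with 4, and Maf with 6. With 2 probe sets, 7 of 10 bZIP genes had them on the same side (57.2% of all such genes). The count was 1 of 5 with 3 (36.4%) and 2 of 3 with 4 (24.1%). With 5 it was 0 of 2 (17.5%), and with 6 it was 1 of 2 (13.9%). The pooled SD of the difference over passing probe sets of a gene was 0.33, a technical spread within the same RNA that says nothing of mice. Among the genes with a single probe set, for which no such check exists, are Atf3, Atf5, Fos, Junb and Nfe2.

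Genes that act on or under the bZIP factors are described from lists that were chosen with earlier results of these data known. Kinases that phosphorylate Jun, Fos and ATF proteins were close to even, with none of 17 passing genes past 2-fold, 5 above 0 and a median of -0.07. By the strongest probe set, the Jun kinases Mapk9 (0.46) and Mapk8 (0.43) were the highest and Map3k8 (Tpl2, -0.52) the lowest. Passing probe sets of Mapk9 ran from -0.01 to 0.46 and those of Mapk8 from 0.11 to 0.43. Cofactors of Jdp2 and of other bZIP proteins had 3 of 12 genes above 0 and a median of -0.16. Over all passing genes 44.8% lay above 0 and the median was -0.04. Hdac3, the deacetylase that Jdp2 recruits, read 7.85 against 8.16. The CREB coactivator Crtc2 differed by -0.67, Irf2bp1 by -0.61 and Hdac2 by -0.51, with its 3 probe sets spread between -0.82 and 0.39.

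Immediate early genes outside the family, which respond to the same stimuli as Fos and Atf3, had 1 of 19 passing genes at least 2-fold higher. This was Egr3, which read 8.04 against 6.94, with its other passing probe set at 0.35. Klf4 differed by 0.74 and Egr2 by 0.72, while Egr1 (-0.01) was as even as Fos. Nr4a2 differed by -0.48 on its strongest probe set, but its 4 passing probe sets ran up to 1.49. Targets of Atf4 had 3 of 17 passing genes at least 2-fold higher and none at least 2-fold lower, with a median of 0.05. Over all passing genes 3.06% were at least 2-fold higher and 2.33% at least 2-fold lower. The amino acid transporter gene Slc7a5 read 8.43 against 6.41, the stress gene Ddit4 read 12.07 against 10.85, and Shmt2, of serine metabolism, read 7.13 against 5.99. The mean over 4 probe sets of Shmt2 was 0.08. Phgdh differed by 0.87 on its strongest probe set, with passing probe sets from -0.10 to 1.35. In the other direction the asparagine synthetase gene Asns differed by -0.90 and Chac1 by -0.63. Genes under Atf4 thus differed both ways beside an even Atf4.

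Targets of Atf6 in the endoplasmic reticulum had 4 of 14 genes above 0, with a median of -0.13, and 6 above 0 under quantile or loess normalisation. The lowest were Creld2 (-0.64), Pdia4 (-0.60) and Hsp90b1 (-0.55). Targets of Nrf2 had 3 of 12 passing genes above 0 and a median of -0.15, and none was past 2-fold. Gclm, for glutathione synthesis, read 8.47 against 9.12, Nqo1 read 6.93 against 7.48 and Srxn1 read 6.54 against 6.88, whereas the heme oxygenase gene Hmox1 read 11.46 against 11.27. Both lists are to be read beside the 44.8% of all genes above 0. bZIP genes that were not members had 6 passing genes, all below 0, with a median of -0.28: Creb3l2 (-0.91), Creb3l1 (-0.55), Xbp1 (-0.29), Creb3l3 (-0.28), Dbp (-0.21) and Ddit3 (-0.19). None of them reached 2-fold.

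**Figure D4:**
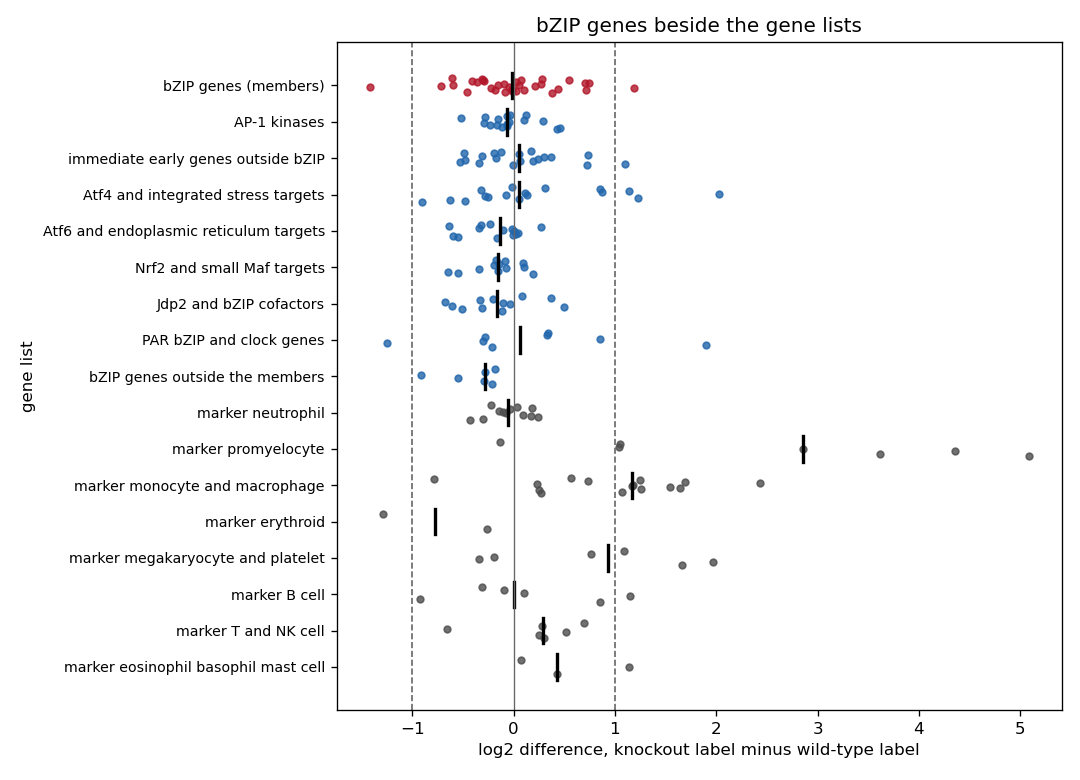
Log2 difference (x axis) of each gene that passed the level filter, by list (y axis), with 33 bZIP genes in red, genes around them in blue, cell markers in grey, a black bar at each median and dashed lines at 2-fold. The bZIP genes centre at -0.02, the neutrophil markers at -0.06, while promyelocyte and macrophage markers extend to the right.

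Neutrophil markers were present and close to even, while lists of other cells differed between the arrays. Counts past 2-fold are to be read beside all passing genes, of which 3.06% were higher and 2.33% lower by that much. All 12 neutrophil markers that were measured passed, between -0.43 and 0.24, with summed signals of 180601 and 181545. Several read near the highest values of the arrays, 14.56 and 14.54, such as Camp (14.51 against 14.54) and S100a9 (14.46 against 14.37). Whether signal so near the top could show a difference was not tested, and such probe sets weigh most in the sums. Itgam, which encodes CD11b, read 10.67 against 11.09, and Ly6g was not analysed here. Promyelocyte genes were at least 2-fold higher in 6 of 7 cases on the array labelled knockout, with a summed signal of 6948 against 2308, namely Mpo (5.09), Ctsg (4.36), Elane (3.62), Prtn3 (2.86), Ctsc (1.05) and Ms4a3 (1.04). Ctsg and Prtn3 passed only through that array and came to 6.64-fold and 3.06-fold with their lower values set to the array median. A second passing probe set of Ctsc read -0.61, and the remaining gene, Gfi1, differed by -0.14. Megakaryocyte and platelet genes were at least 2-fold higher in 3 of 6 passing cases (4835 against 2874), namely Ppbp (1.97), Pf4 (1.66) and Gp1bb (1.09), while Itga2b (-0.34) and Itgb3 (-0.20) lay below 0. Nfe2 differed by -0.41. Erythroid markers had 2 of 9 genes past the filter (Car2, -1.29, and Tfrc, -0.27), the globin gene Hba-a1 stayed below it on both arrays, and the summed signal was 1010 against 1291. T and NK cell markers summed to 1710 against 1395 with none of 6 past 2-fold. Eosinophil, basophil and mast cell markers summed to 707 against 531. Of their 3 passing genes, Ccr3 (1.13) alone passed 2-fold by its strongest probe set. It came to 1.19-fold with its lower value set to the array median. Gata2 differed by 0.07, but its other passing probe set differed by -1.48. The part of any of these cells in the values of the bZIP genes was not tested.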

How the data were processed

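The 2 arrays, 1 for each labelled genotype, came with log2 probe set values that the authors deposited. RMA was used to make them, per the submitters' processing notes. The sources used here do not give the RMA version or settings. After sorting, paired values differed by no more than 0.117, which means that the distributions had been made nearly equal, and there is no detection call. Of 45101 probe sets, 64 controls were left out. Of the other 45037, 34945 had 1 symbol in the platform annotation, 932 had several and 9160 were not listed. Symbols were updated by Entrez identifier against RefSeq (GRCm38.p6), where 34741 matched.

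The level filter, the size rule of 2-fold and the choice of the probe set with the highest mean for a gene were applied to all probe sets with Python 3.11.15 and pandas 2.3.3. With 1 array per group no test was made. Loess (span 0.3) used statsmodels 0.14.6. The rule for named genes took every bZIP gene with each probe set, the 3 or fewer genes farthest from 0 in each list, and any past 2-fold. Others, such as Hdac3, Egr1, Asns, Chac1, Hmox1, Hba-a1 and the neighbours of Jdp2 were named after their values were seen. The members and lists were chosen with earlier results of these data known. The procedure was run on simulated arrays, with differences larger than 2-fold planted in probe sets well above the array median. That run checks the code and says nothing of weak signal or smaller differences.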

Additional observations from a re-analysis of the deposited data

How the results depend on the processing

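No paired analysis was possible because each group had 1 array and no result came from a test. With 1 array each, no array could be left out. No spread between replicates exists against which to judge how far a value moved. The median over bZIP probe sets, -0.05 as reported, ran from -0.08 to 0.02 over the alternatives and lay above 0 without the level filter alone. That over genes ran from -0.04 to -0.02. The count of probe sets at least 2-fold higher, 2 as reported, was 3 without the level filter and 7 at 1.5-fold. It was 1 with a filter at the 75th percentile or on both values. The count at least 2-fold lower, 1 as reported, was 0 with either of those 2 stricter filters. It was also 0 without probe sets whose names end in _a_at, _s_at or _x_at, and 5 at 1.5-fold. Only Atf3 kept 2-fold in each alternative run for single genes. Atf5 lost it when the lower value was raised to the array median and has no other probe set. Centring on medians or quantile normalisation changed the sign of none of 36 genes and loess that of Fos. Averaging all probe sets changed 7 signs (Jund, Atf7, Nfe2l3, Bach1, Creb1, Crebzf and Tef), and raising the lower value changed that of Nfe2l3. Signal near or under the array median limits what can be said of Fosl1, Atf5, Batf2, Creb5, Nfe2l3 and Bach2.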
